A study of Mus musculus with 6 samples.

Results

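The genes described here are the cell cycle and DNA replication genes in the deposited expression table of peritoneal B-1a and B-1b cells. They were chosen by a rule on names, set with earlier results of these data known: A, B, D and E type cyclins, cyclin-dependent kinases (CDKs) with a number, genes whose symbol starts with Cdkn, the Cdc6, Cdc7, Cdc20, Cdc25 and Cdc45 series, the Mcm, E2f, Orc, Rfc and Gins families, and Pcna, Mki67, Top2a, Birc5 and Rb1. This gave 44 members among the 7834 gene names of the table. They occupied 67 of its 13747 rows, with 28 members on a single row and 16 on several, and the rows of a name were summed. They comprised 4 cyclins, 9 CDKs, 4 genes with a Cdkn symbol, Cdc25b, Cdc20 and Cdc73, 6 genes of the E2f and Rb1 group, 4 Orc genes, 6 Mcm genes, Gins4, 5 Rfc genes, Pcna and Birc5. Mki67, Top2a, Cdk1, Ccnb1, Ccnd1, Cdkn1a and Cdkn1b had no row under those names and were not analysed here.

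B-1a and B-1b cells are innate-like B lymphocytes that share the peritoneal cavity and are told apart by surface CD5, present on B-1a and lacking on B-1b cells. Both were sorted by flow cytometry from the peritoneal cavity of wild-type C57BL/6 mice, without a treatment in the labels, and polyadenylated RNA was sequenced in bulk. The study's methods state that male mice were used. The age of these mice, and whether the cells of several mice were pooled for a library, were not stated. The labels give 3 replicates per group, but the columns numbered 3 were not independent libraries: B-1b replicate 3 held the same values as B-1b replicate 1 in 13722 rows, and B-1a replicate 3 was the mean of replicates 1 and 2 in 13710 rows (relative tolerance 1e-06). Both relations held in all 67 member rows. All comparisons therefore used replicates 1 and 2 of each group, 4 libraries in all. Nothing in the labels says that these came from separate animals, so the p-values measure only the spread between these samples. With 2 libraries against 2, the smallest two-sided p that an exact permutation test of a single value allows is 0.33.

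A cell enters the cycle when D type cyclins, together with Cdk4 or Cdk6, phosphorylate the retinoblastoma protein Rb1 and release E2F transcription factors, which then switch on the genes of DNA synthesis. The origin recognition complex (ORC) marks where replication may start, Cdc6 and Cdt1 load the hexameric Mcm2 to Mcm7 helicase there, Cdc45 and GINS activate it, and replication factor C (RFC) places the sliding clamp Pcna on DNA for the polymerases. In lymphocytes cyclin D2 and cyclin D3 are the main D type cyclins, and B-1 cells are known for renewing themselves in the peritoneal cavity.

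Levels were read as FPKM, fragments per unit of transcript length and of library size, so levels of different genes can be set side by side. All values summed to 346147 and 344980 FPKM in the B-1a libraries and to 324330 and 366992 FPKM in the B-1b libraries. The B cell markers (7 of 7 in the table) summed to 4548 and 4323 FPKM in B-1a against 4032 and 4170 FPKM in B-1b. Cd5, the antigen that separates the subsets, was below 1 FPKM in every library and did not separate the groups. Of all genes tested, 25.8% had both B-1b libraries above both B-1a libraries and 17.3% had both below. Of 8 macrophage markers, 7 were in the table, none at 0. Both B-1b libraries were above both B-1a libraries for 4 of them, among them Adgre1, Csf1r and Cd68, and below both for 1, Timd4 of resident macrophages, at 23.4 and 23.8 FPKM against 16.5 and 18.9 FPKM; the other 2 overlapped. The 7 summed to 4513 and 3458 FPKM in B-1a against 4155 and 7065 FPKM in B-1b, most of it Lyz2, and Adgre1, the F4/80 antigen of macrophages, stood at 51.1 and 56.0 FPKM against 90.4 and 101 FPKM. The T cell markers (4 of 7 in the table) summed to 12.8 and 10.8 FPKM against 8.08 and 10.9 FPKM. The mast cell markers (4 of 5 in the table, 2 of them without overlap) summed to 95.2 and 95.2 FPKM against 159 and 101 FPKM, and the platelet gene Pf4 was at 136 and 106 FPKM against 209 and 272 FPKM. The B-1 cell markers (5 of 7 in the table, mostly Itgam and Plscr1) summed to 54.2 and 82.2 FPKM against 123 and 109 FPKM. Of the 4 tested, 3 were higher in both B-1b libraries and Spn overlapped. The B-2 cell markers (3 of 3, mostly Ighd) summed to 446 and 341 FPKM against 234 and 254 FPKM. Among them only Ighd was lower in both B-1b libraries. Fcer2a was higher in both, at 9.71 and 11.5 FPKM against 17.6 and 13.1 FPKM, and Cr2 overlapped.

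The members as a whole held a slightly larger share of the B-1b libraries. Their levels summed to 635 and 570 FPKM in B-1a and to 770 and 784 FPKM in B-1b, or 0.183% and 0.165% of all FPKM against 0.238% and 0.214%. Both B-1b libraries were therefore above both B-1a libraries. In bulk RNA, fewer cells of a type and less RNA per cell cannot be told apart. Whether the cells behind the macrophage, mast cell, platelet, B-1 and B-2 cell markers had a part in this difference was not tested. Some markers of each of these lists also differed between the groups, in both directions for macrophages and B-2 cells.

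**Figure D1:**
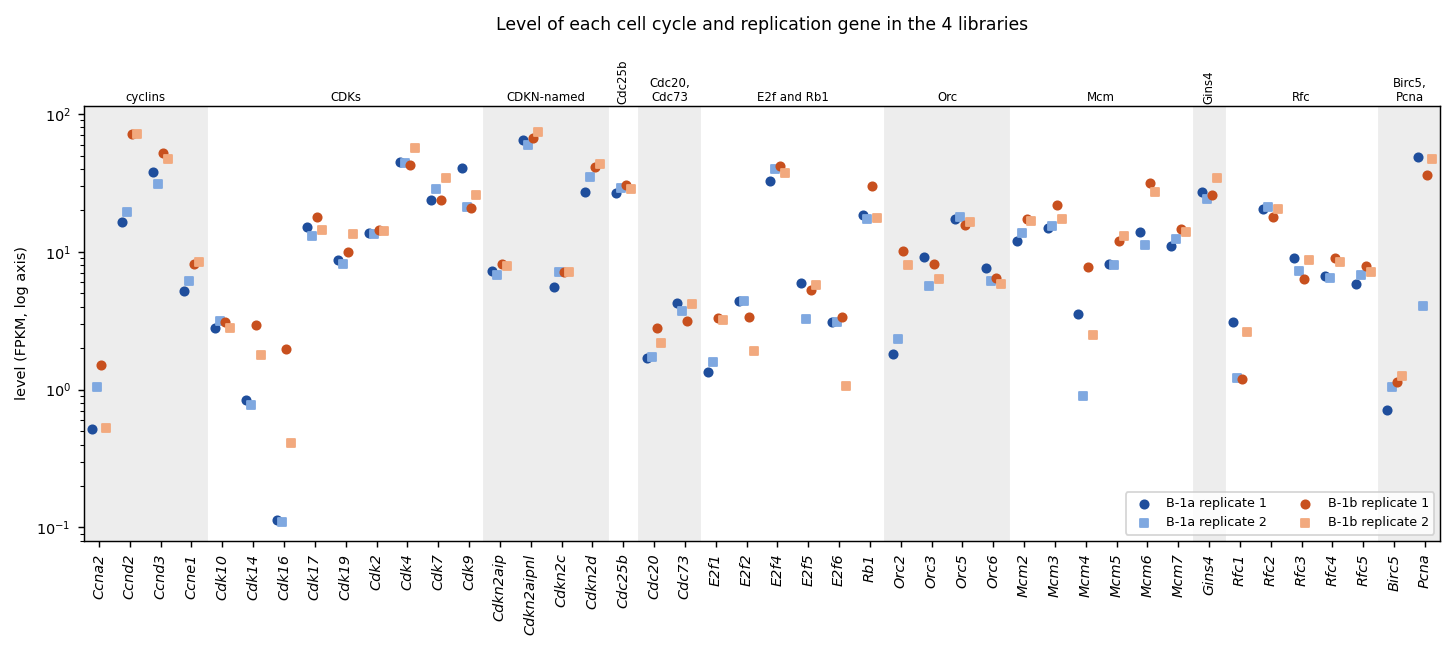
Level of each of the 44 members in FPKM (log axis) in the 4 libraries, ordered by role; circles are replicates 1 and squares replicates 2, blue for B-1a and orange for B-1b. Ccnd2, Orc2 and Mcm6 show the B-1b points well above the B-1a points, whereas Pcna has 1 B-1a point at 4.06 FPKM below the other 3.

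Each gene was tested on log2(FPKM + 1) with limma, B-1b over B-1a, so that fold changes of genes at low FPKM are understated. Of the members, 43 of 44 passed the filter, a level of 1 FPKM or more in 2 or more of the 4 libraries. Cdk16, a PCTAIRE family kinase at 0.113 and 0.110 FPKM in B-1a against 1.98 and 0.409 FPKM in B-1b, did not. Cdk14 passed only through its B-1b libraries, so it had to be higher there; it is in the counts over the 43 members, and its own difference is given without a test. No member passed an adjusted p of 0.05, where 15 of all 7557 genes tested did (0.198%). At an unadjusted p under 0.05 limma called 5 members, all higher in B-1b (Ccnd2, Ccnd3, Mcm5, Mcm6 and Orc2), against 730 of all genes in either direction (9.66%) and 407 higher in B-1b (5.39%). This count was 3 without B-1a replicate 2, 6 without B-1b replicate 1 and 3 with a filter of 10 FPKM. When each library was left out in turn, 28 of the 41 members that could be fitted every time moved by over 1.5 times or changed sign in their log2 fold change, and 13 did not: Ccnd2, Ccnd3, Ccne1, Cdk2, Cdkn2aip, E2f1, Mcm2, Mcm5, Mcm6, Mcm7, Orc2, Orc5 and Rfc4. Without sharing of the spread between genes, a linear model also called 0 members at an adjusted p of 0.05 and 7 at an unadjusted p under 0.05, beside 657 of all genes at that p (8.69%).

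Without reference to a threshold, 33 of the 43 members had a higher mean log2 level in B-1b and 10 a lower one, beside 56.2% of all genes tested with a higher one. Both B-1b libraries were above both B-1a libraries for 20 members, beside 25.8% of all genes, and below both for 2 members, beside 17.3% of all genes; for 21 members the groups overlapped. The median log2 fold change of the members was 0.20, with a range of -0.60 to 1.95, and that of all genes tested was 0.05. In the plot of the distribution of the differences the curve of the members lay to the right of the curve of all genes over most of its course. These counts describe members chosen with results of the same data known and carry no test.

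**Figure D2:**
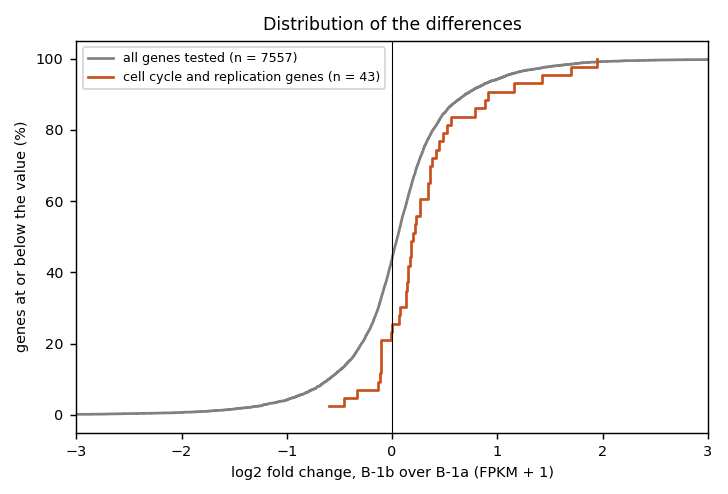
Cumulative share of genes (y axis, %) at or below each log2 fold change of FPKM + 1, B-1b over B-1a (x axis), for the 43 members tested (orange) and all 7557 genes tested (grey); the axis ends at -3 and 3. The members reach their median at 0.20 and all genes at 0.05.

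With all 4 libraries, the largest log2 fold change of any member tested was that of a cyclin, Ccnd2. With a pseudocount of 0.1 in place of 1 the 2.07 of Orc2 was above that of Ccnd2. Without B-1a replicate 1 the 3.07 of Pcna was above the 1.83 of Ccnd2. Cyclin D2 (Ccnd2, ENSMUSG00000000184.12, chr6:127125162-127152193 in GRCm38, minus strand), the partner of Cdk4 and Cdk6 in early G1, was at 16.3 and 19.4 FPKM in the B-1a libraries and 71.6 and 71.8 FPKM in the B-1b libraries. Both B-1b libraries were far above both B-1a libraries and nearly equal to each other. The means were 17.9 ± 2.17 and 71.7 ± 0.0890 FPKM (SD, n = 2 each), a ratio of 4.01. The log2 fold change was 1.95 ± 0.16 (SE), with a 95% interval of 1.51 to 2.39 and an adjusted p of 0.0727, and Ccnd2 was 24th of the 7557 genes by p. Its 3 rows did not split this difference evenly: 1 row stood at 9.18 and 0.170 FPKM in B-1a against 42.9 and 46.9 FPKM in B-1b, whereas the row next to it stood at 6.13 and 15.1 against 21.5 and 20.1 FPKM.

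Cyclin D3 (Ccnd3), the other D type cyclin in the table, was at 37.9 and 30.9 FPKM in B-1a against 51.8 and 47.5 FPKM in B-1b. Here too both B-1b libraries were higher, by a log2 fold change of 0.53 ± 0.18 (SE), with an unadjusted p of 0.0389 and an adjusted p of 0.481 by limma. The level of cyclin D3 was above that of cyclin D2 in both B-1a libraries and below it in both B-1b libraries. Cyclin E1 (Ccne1), which activates Cdk2 at the entry into S phase, was at 5.20 and 6.20 FPKM against 8.20 and 8.46 FPKM, with a log2 fold change of 0.48 (95% interval -0.08 to 1.04, adjusted p = 0.569). Cyclin A2 (Ccna2), a cyclin of S phase and G2, was close to the filter at 0.521 and 1.04 FPKM in B-1a against 1.50 and 0.530 FPKM in B-1b. Its groups overlapped.

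**Figure D3:**
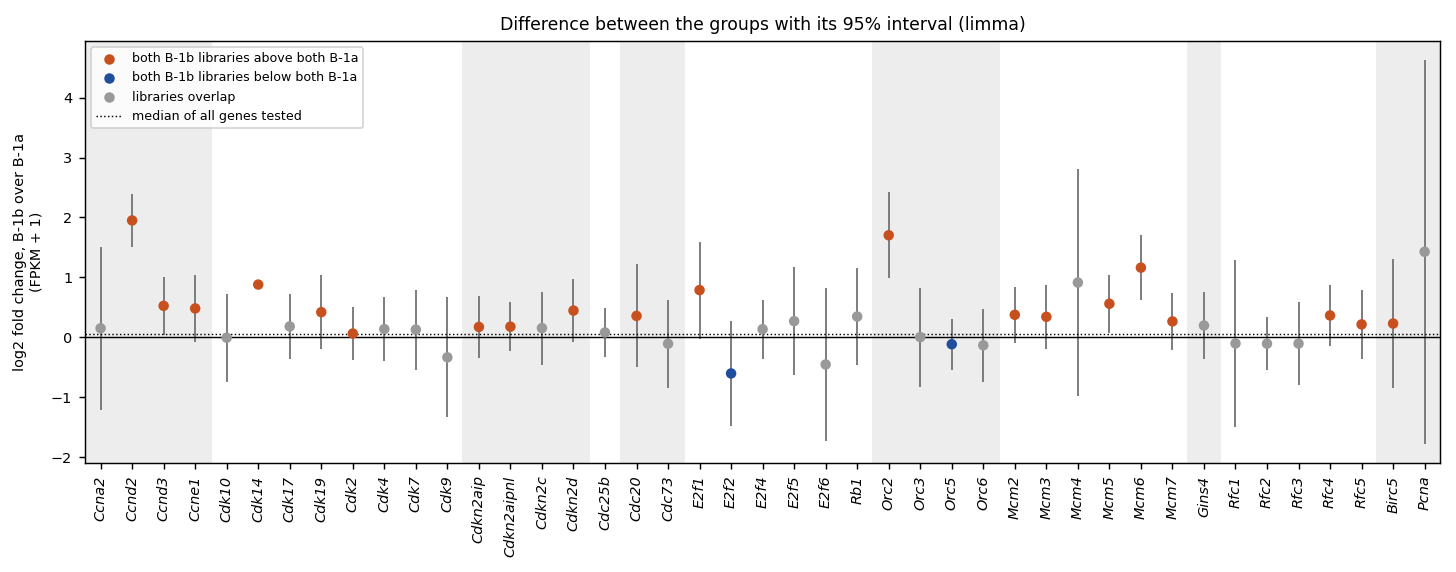
Log2 fold change of FPKM + 1, B-1b over B-1a (y axis), of the 43 members tested with the 95% interval from limma (Cdk14 without one, since it passed the filter only through B-1b), ordered by role; colours mark members whose libraries did not overlap and the dotted line is the median of all genes tested, 0.05. The intervals of Ccnd2, Ccnd3, Mcm5, Mcm6 and Orc2 lie above 0, and that of Pcna spans -1.77 to 4.63.

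The kinases had a smaller median difference than the cyclins, a log2 fold change of 0.13 against 0.50. Cdk4, a partner of the D cyclins, was at 44.7 and 44.1 FPKM in B-1a against 42.5 and 56.4 FPKM in B-1b, so the groups overlapped. Cdk2, the partner of cyclins E and A, was at 13.8 and 13.4 FPKM against 14.5 and 14.1 FPKM, with a log2 fold change of 0.06 (95% interval -0.37 to 0.50), and its libraries overlapped once the libraries were scaled to equal upper quartiles. Of the 8 CDKs tested, 6 were higher and 2 lower in B-1b, all of them at an adjusted p above 0.05.

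Most other CDKs that the name rule brought in work outside the core cycle. Cdk7, which activates other CDKs and is part of the transcription factor TFIIH, was at 23.9 and 28.7 FPKM in B-1a against 24.0 and 34.4 FPKM in B-1b. Cdk9, the kinase of the elongation factor P-TEFb, was at 40.9 and 21.3 FPKM against 20.9 and 25.8 FPKM, where B-1a replicate 1 stood apart, and its log2 fold change turned from -0.33 to 0.12 without that library. The groups overlapped for both. Cdk19, a kinase of the Mediator complex, was at 8.70 and 8.15 FPKM in B-1a against 9.96 and 13.5 FPKM in B-1b, with a log2 fold change of 0.42 and an adjusted p of 0.632, or 0.22 without B-1b replicate 2. Cdk17, of the PCTAIRE family, was at 15.1 and 13.1 FPKM against 18.0 and 14.4 FPKM. Cdk14, which pairs with cyclin Y, was low at 0.837 and 0.772 FPKM in B-1a against 2.95 and 1.80 FPKM in B-1b. Of these, Cdk19 and Cdk14 were higher in both B-1b libraries and Cdk17 overlapped, as did Cdk10 with a log2 fold change of -0.01.

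Among the genes with a Cdkn symbol, Cdkn2c and Cdkn2d encode inhibitors of the INK4 family, which block Cdk4 and Cdk6. p19INK4d (Cdkn2d) was at 27.0 and 35.2 FPKM in B-1a against 41.4 and 43.5 FPKM in B-1b, higher in both B-1b libraries, with a log2 fold change of 0.45 ± 0.19 (SE) and an adjusted p of 0.569. It was 0.26 without B-1a replicate 1 and 0.63 without B-1a replicate 2. p18INK4c (Cdkn2c) was at 5.54 and 7.16 FPKM against 7.14 and 7.12 FPKM, and overlapped. Cdkn2aip, which encodes a partner of the p19ARF protein, and the related Cdkn2aipnl are no CDK inhibitors and entered by name. Cdkn2aipnl was at 64.4 and 59.8 FPKM in B-1a against 67.0 and 73.7 FPKM in B-1b, and Cdkn2aip had a log2 fold change of 0.17. The phosphatase Cdc25b, which removes inhibitory phosphates from CDKs, was at 27.0 and 29.1 FPKM against 30.7 and 28.7 FPKM, and overlapped. Cdc20, the activator of the anaphase-promoting complex in mitosis, was at 1.69 and 1.72 FPKM in B-1a against 2.80 and 2.17 FPKM in B-1b, with a log2 fold change of 0.36 and an adjusted p of 0.732. Cdc73, a subunit of the PAF1 complex of transcription that the name rule also matched, had a log2 fold change of -0.11.

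E2F factors did not go one way. E2f1, an activator of replication genes, was at 1.35 and 1.59 FPKM in B-1a against 3.32 and 3.21 FPKM in B-1b, with a log2 fold change of 0.79 ± 0.29 (SE), an unadjusted p of 0.0539 and an adjusted p of 0.524 by limma. E2f2, another activator, was at 4.41 and 4.41 FPKM in B-1a against 3.35 and 1.91 FPKM in B-1b. With all 4 libraries it had the lowest log2 fold change of the members, -0.60 ± 0.32 (SE), with an adjusted p of 0.632, and it moved between -0.89 and -0.31 when either B-1b library was left out. E2f1 thus had both B-1b libraries on top and E2f2 had both B-1a libraries on top, and neither passed the test. E2f4, which works mainly as a repressor in resting cells, was the most abundant of the family at 32.8 and 39.9 FPKM against 42.1 and 37.6 FPKM, and overlapped, as did E2f5 and E2f6. The tumour suppressor Rb1, which holds E2F factors inactive, was at 18.4 and 17.5 FPKM in B-1a against 29.9 and 17.7 FPKM in B-1b. Only B-1b replicate 1 was high, and without it the log2 fold change went from 0.35 to -0.02.

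In the Mcm helicase all 6 genes had a higher mean log2 level in B-1b, 5 of them without overlap, beside 25.8% of all genes tested, and their median log2 fold change was 0.47. Their summed level was 63.7 and 61.9 FPKM in B-1a against 105 and 90.6 FPKM in B-1b. Mcm6 (ENSMUSG00000026355.11, chr1:128331590-128359664 in GRCm38, minus strand) had the smallest p of the group, and was at 14.0 and 11.3 FPKM in B-1a against 31.7 and 27.2 FPKM in B-1b, a ratio of means of 2.33. Its log2 fold change was 1.16 ± 0.20 (SE), with a 95% interval of 0.63 to 1.70, an unadjusted p of 0.00369 and an adjusted p of 0.244 by limma. Mcm5 had the next smallest p, at 8.16 and 8.10 FPKM against 11.9 and 13.0 FPKM, with a log2 fold change of 0.56 ± 0.17 (SE), an unadjusted p of 0.0318 and an adjusted p of 0.455. In both genes the B-1b libraries were above the B-1a libraries with a gap wider than the spread within either group.

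The other subunits had no unadjusted p under 0.05. Mcm2 was at 12.0 and 13.8 FPKM in B-1a against 17.3 and 16.7 FPKM in B-1b, with a log2 fold change of 0.38 and an adjusted p of 0.591. Mcm3 was at 15.0 and 15.4 FPKM against 22.1 and 17.2 FPKM (0.34, adjusted p = 0.655; 0.17 without B-1b replicate 1). Mcm7 was at 11.0 and 12.5 FPKM against 14.6 and 14.0 FPKM (0.27, adjusted p = 0.685). These 3 kept the B-1b libraries on top, but their 95% intervals included 0. Mcm4 was the lowest and most uneven subunit, at 3.54 and 0.897 FPKM in B-1a against 7.78 and 2.48 FPKM in B-1b. Its groups overlapped, and its log2 fold change of 0.91 ± 0.69 (SE) had a 95% interval of -0.99 to 2.81 and an adjusted p of 0.709, and lay between 0.25 and 1.58 when a library was left out. The proteins form a hexamer with each subunit present once, whereas the mean mRNA levels in B-1a ran from 2.22 FPKM (Mcm4) to 15.2 FPKM (Mcm3) and in B-1b from 5.13 FPKM (Mcm4) to 29.5 FPKM (Mcm6).

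Mcm genes are textbook targets of E2F, so the promoters of this group are shown with the E2F words they hold. RefSeq windows of 300 bases (GRCm38.p6, 250 before to 50 after the annotated start) were found for 34 members, 40 windows in all. Ccna2, Ccnd2, Cdk17, Cdk19, E2f4, E2f5, Gins4, Mcm4, Rb1 and Rfc2 were not matched. The words searched, on both strands and with overlapping matches counted, were TTTCCCGC, TTTCGCGC, TTTGCCGC and TTTGGCGC. They occurred in 8 of the 40 member windows (20%), in 744 of all 32851 promoter windows (2.27%) and in 286 of the 7203 windows of genes tested here (3.97%). The 8 belonged to Cdk2, E2f2, Mcm3, Mcm5, Mcm6, Mcm7, Orc3 and Rfc3. The letters CCAAT occurred in 60.0% of the member windows and in 37.4% of all windows. A match describes the sequence and is no measurement of binding, and E2f2, Orc3, Rfc3 and Cdk2 hold the words without a log2 fold change above 0.10. The 250 bases before the start are printed for Mcm6 and Mcm5, which had the smallest p of the group, and for Mcm7 and Mcm2, which had larger ones, each 5′ to 3′ on the strand of the gene with the E2F words, in either orientation, in capitals. Mcm2 (chr6:88898781-88899030, minus strand) holds none of these words. Mcm6 (chr1:128359706-128359955, minus strand) holds 3, of which 2 overlap, and Mcm5 (chr8:75109259-75109508, plus strand) holds 2 that overlap. The Mcm7 window (chr5:138171884-138172133, minus strand) holds 1 before the start and another after it. It was picked because it holds a word, and any other window of Mcm7 held none. For Mcm3, both words lie just after the start, and only the 30 bases around them are printed (chr1:20820265-20820294, minus strand).

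Mcm6: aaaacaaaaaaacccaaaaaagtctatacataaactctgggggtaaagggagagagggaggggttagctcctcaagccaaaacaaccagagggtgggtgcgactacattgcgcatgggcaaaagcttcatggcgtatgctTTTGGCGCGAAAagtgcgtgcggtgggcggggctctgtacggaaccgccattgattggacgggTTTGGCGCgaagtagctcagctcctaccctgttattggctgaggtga
Mcm5: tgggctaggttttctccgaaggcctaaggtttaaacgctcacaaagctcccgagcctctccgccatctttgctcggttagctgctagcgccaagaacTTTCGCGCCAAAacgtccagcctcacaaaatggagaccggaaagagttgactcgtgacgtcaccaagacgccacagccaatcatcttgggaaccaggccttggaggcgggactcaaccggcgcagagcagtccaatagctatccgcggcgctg
Mcm7: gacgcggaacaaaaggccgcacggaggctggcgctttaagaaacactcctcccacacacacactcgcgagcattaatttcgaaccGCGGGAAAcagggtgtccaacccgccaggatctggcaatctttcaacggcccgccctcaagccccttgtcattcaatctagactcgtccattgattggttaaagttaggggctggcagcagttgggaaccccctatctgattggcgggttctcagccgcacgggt
Mcm3: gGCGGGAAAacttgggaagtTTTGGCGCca
Mcm2: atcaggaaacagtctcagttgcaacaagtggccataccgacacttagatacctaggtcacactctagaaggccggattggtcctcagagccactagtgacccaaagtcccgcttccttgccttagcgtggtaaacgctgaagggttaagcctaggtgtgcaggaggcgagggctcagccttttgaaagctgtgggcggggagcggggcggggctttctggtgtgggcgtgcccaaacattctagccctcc

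Of the origin recognition complex, which binds origins before the Mcm helicase is loaded, 4 subunits were present and a single one stood out. Orc2 (ENSMUSG00000026037.14, chr1:58462771-58505109 in GRCm38, minus strand) was at 1.82 and 2.34 FPKM in B-1a against 10.1 and 7.97 FPKM in B-1b. Both B-1b libraries were above both B-1a libraries, with a ratio of means of 4.35. The log2 fold change was 1.70 ± 0.26 (SE), with a 95% interval of 0.99 to 2.42, an unadjusted p of 0.00257 and an adjusted p of 0.223 by limma. The other subunits of the complex were level or slightly lower in B-1b. Orc3 was at 9.13 and 5.69 FPKM against 8.20 and 6.40 FPKM, with a log2 fold change of 0.00 (95% interval -0.82 to 0.83). Orc5 was at 17.2 and 17.9 FPKM in B-1a against 15.7 and 16.5 FPKM in B-1b, lower in both B-1b libraries by a log2 fold change of -0.12 (adjusted p = 0.820). Orc6 was at 7.65 and 6.15 FPKM against 6.48 and 5.89 FPKM, and overlapped. In B-1a, Orc2 was the lowest of the 4 subunits, and in B-1b it was above Orc3 in the group means, 9.04 against 7.30 FPKM.

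At the fork itself little separated the groups. Gins4, a subunit of the GINS complex that completes the active helicase, was at 27.2 and 24.3 FPKM in B-1a against 25.7 and 34.1 FPKM in B-1b, and overlapped. Of the 5 RFC clamp loader subunits, Rfc4 was at 6.72 and 6.47 FPKM against 9.05 and 8.51 FPKM (log2 fold change 0.36, adjusted p = 0.620) and Rfc5 at 5.88 and 6.85 FPKM against 7.96 and 7.11 FPKM (0.22, adjusted p = 0.748). Rfc2 was at 20.4 and 21.1 FPKM against 18.0 and 20.4 FPKM. Rfc4 and Rfc5 were thus higher in both B-1b libraries, whereas Rfc1, Rfc2 and Rfc3 overlapped with log2 fold changes between -0.11 and -0.10, of which Rfc1 reached 0.34 without B-1a replicate 1 and Rfc3 0.10 without B-1b replicate 1.

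The markers of dividing cells gave no difference that held up against the spread. Pcna, the clamp and a common marker of S phase, was at 48.4 and 4.06 FPKM in B-1a against 36.3 and 47.5 FPKM in B-1b. B-1a replicate 2 alone was low, and B-1a replicate 1 was the highest of the 4. The log2 fold change of 1.43 ± 1.16 (SE) had a 95% interval of -1.77 to 4.63, and it was -0.22 without B-1a replicate 2 and 3.07 without B-1a replicate 1. Birc5 (survivin), a protein of the mitotic chromosomal passenger complex, was near the filter at 0.711 and 1.05 FPKM in B-1a against 1.14 and 1.26 FPKM in B-1b.

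The deposited rows are transcripts, and some members were made of rows that differed in opposite directions. Which transcript a row stands for is not given in the sources used here. With rows kept apart, 61 member rows were tested, and limma called 0 of them at an adjusted p of 0.05 (all rows, 0.0494%) and 6 at an unadjusted p under 0.05 (all rows, 9.88%). Of these 6, the row of Ccnd3 had passed the filter only through the B-1b libraries. Among 14 members with several tested rows, 3 had 1 row higher and another row lower in both B-1b libraries, beside 14.5% of the 2819 such names in the table. These were Cdkn2d, Ccnd3 and Cdk10.

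Cdkn2d showed this most clearly, because its sum was higher in B-1b by far less than either row differed. Its first row was at 2.86 and 6.85 FPKM in B-1a against 33.2 and 36.0 FPKM in B-1b, with a log2 fold change of 2.69 and an adjusted p of 0.215 over all rows. Its second row was at 24.2 and 28.3 FPKM against 8.19 and 7.49 FPKM (-1.62, adjusted p = 0.159). The main row was thus the second one in both B-1a libraries and the first one in both B-1b libraries. For Mcm6, the difference lay in 1 row, at 0.780 and 1.20 FPKM in B-1a against 14.2 and 14.5 FPKM in B-1b, with a log2 fold change of 2.96 and an adjusted p of 0.108. The other Mcm6 row was at 13.2 and 10.1 FPKM against 17.5 and 12.7 FPKM, and overlapped. In Ccnd3, the first and largest row was at 29.4 and 19.0 FPKM in B-1a against 42.6 and 37.1 FPKM in B-1b (0.72, adjusted p = 0.543 by limma). The fourth row was lower in both B-1b libraries, at 6.74 and 9.30 FPKM against 5.51 and 6.47 FPKM (-0.36, adjusted p = 0.756). The third row was at 0.295 and 0.271 FPKM against 2.80 and 3.10 FPKM, while the second row was at 1.43 and 2.26 FPKM against 0.901 and 0.871 FPKM. The third row passed the filter only through the B-1b libraries and the second only through the B-1a libraries, so these values are given without a test.

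Some rows followed a replicate rather than a group. For Cdk2, the first row was at 8.78 and 1.06 FPKM in B-1a against 8.78 and 1.29 FPKM in B-1b, and the second at 4.47 and 11.4 FPKM against 4.64 and 11.6 FPKM. Replicates 1 of both groups shared one pattern and replicates 2 the other, and the sum hid it. For Orc5, B-1a replicate 2 alone had 14.3 FPKM on its first row, where the other 3 libraries were below 1 FPKM. For Cdk7, the second row was listed at 0 in B-1a replicate 1 and stood at 15.1, 8.20 and 19.1 FPKM in the other libraries.

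**Figure D4:**
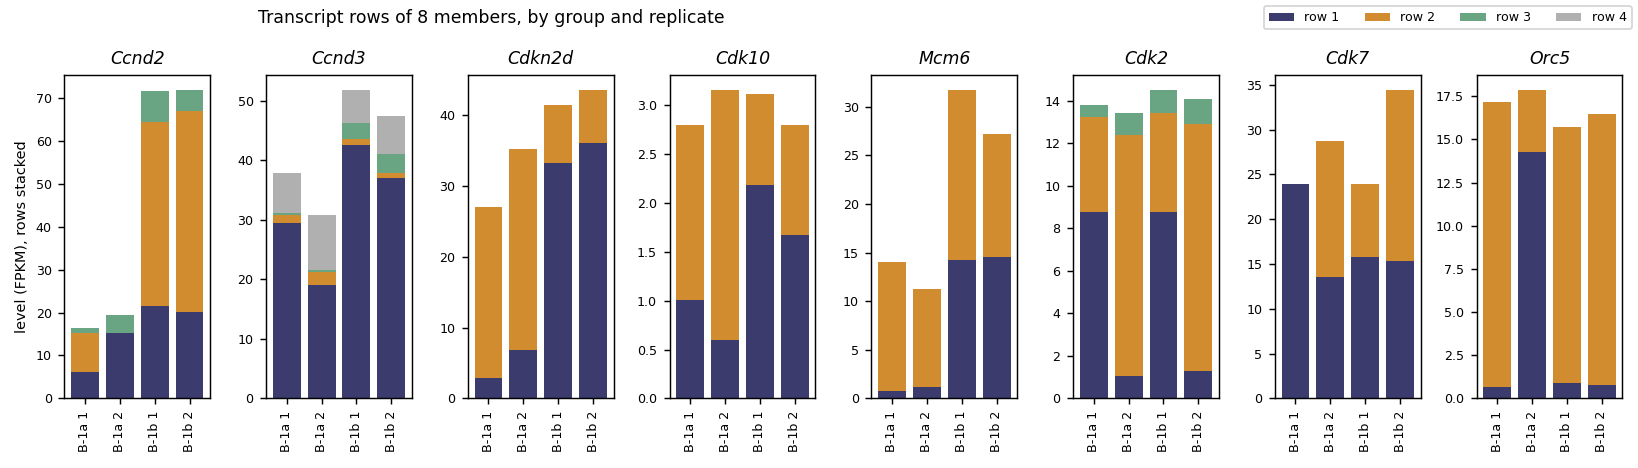
Level in FPKM of the transcript rows of 8 members, stacked, in the 4 libraries; each colour is a row of that gene and each panel has its own y axis from 0. The main row of Cdkn2d differs between the groups, 1 row carries the difference of Mcm6, and the rows of Cdk2 trade places between replicates 1 and 2 in both groups.

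Genes of the same pathways outside the name rule were taken from 5 lists, and limma called 0 of their genes at an adjusted p of 0.05. Of all genes tested, 56.2% were higher in B-1b and 9.66% had an unadjusted p under 0.05. Of 35 listed genes of the replication origin and fork, which include the licensing factor Cdt1, its inhibitor geminin and the polymerases, 19 were tested, with 13 higher and 6 lower in B-1b, a median log2 fold change of 0.15 and 0 at an unadjusted p under 0.05. Of the nucleotide supply genes, 6 were tested, 5 higher and 1 lower, with a median of 0.19 and 0 at that p. Of 37 genes of mitosis and cytokinesis only 6 were in the table, with a median of 0.06 and again 0 at that p. Of the pocket proteins and E2F partners 5 were tested (median 0.07, 0 at that p).

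The checkpoint and ubiquitin ligase list, with 18 genes tested, 9 higher and 9 lower and a median of 0.01, held 2 of its 18 genes at an unadjusted p under 0.05, beside 9.66% of all genes tested, and the other lists held 0. Wee1, the kinase that holds Cdk1 inactive until mitosis, was at 2.83 and 2.96 FPKM in B-1a against 15.6 and 8.34 FPKM in B-1b, with a log2 fold change of 1.68 and an adjusted p of 0.292. Cul1, the scaffold of the SCF ubiquitin ligases that mark cyclin E and the CDK inhibitors for destruction, was at 25.3 and 26.2 FPKM against 3.62 and 1.01 FPKM (-3.13, adjusted p = 0.210). Both genes had libraries that did not overlap, in opposite directions.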

How the data were processed

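Bulk RNA of both B-1 subsets was sequenced. Per the study's methods and the submitters' processing notes, reads were aligned to GRCm38/mm10 with HISAT2, quantified with StringTie and compared with Ballgown. Their versions, the annotation and any row filter were not stated. The table names no unit, and the name under which it was deposited calls the values raw read counts. The deposited values were nevertheless read as FPKM per transcript, since they were fractional (0% whole numbers) and fell with transcript length. The Spearman correlation was -0.15 over 4389 genes with a single row, for B-1a replicate 1 against the median length of the annotated transcripts. FPKM leave the depth unknown, so no counting interval is given and the number of libraries limits the precision. All 6 sample columns were mapped, with 0 others.

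Rows of a name were summed, and log2(FPKM + 1) was fitted by limma 3.58.1 (R 4.3.3; intensity trend, Benjamini-Hochberg adjustment over the 7557 genes that reached 1 FPKM in 2 or more of the 4 libraries). Intervals are at 95% and tests two-sided. The fit was tested on simulated data. Other steps used Python 3.11.15, numpy 2.4.6, pandas 2.3.3, scipy 1.17.1 and matplotlib 3.10.9. Of the names, 7830 matched GENCODE M21, the source of the gene positions; promoter sequences are from RefSeq. Members, lists of pathway and marker genes and tests were chosen with earlier results of these data known. Named were members at 10 FPKM or more in a group mean, those with an unadjusted p under 0.05, the 3 of smallest p in each role group and textbook proliferation genes; others are given where a comparison needed them. The tests were repeated under other pseudocounts, filters, scalings, models and sets of libraries. Single values of some marker genes are not reported here.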

Additional observations from a re-analysis of the deposited data

How the results depend on the processing

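No member passed an adjusted p of 0.05 in any alternative with independent libraries: no filter, a filter of 10 FPKM, a pseudocount of 0.1, both scalings, a linear model per gene, the replicate block, rows kept apart, and leaving out each library. With all 6 columns entered as deposited, 11 members and 1241 genes passed; of these columns 2 derive from the others. The 15 genes of the whole table became 7 without a filter, 6 with rows kept apart, 0 with a linear model per gene (657 at an unadjusted p under 0.05), 0 with a replicate block (614) and 0 on leaving out any library, 0 to 0 (538 to 1127). With the replicate block 3 members had an unadjusted p under 0.05. Deviations of same-numbered libraries correlated at 0.0012 over 7557 genes, on levels summed per gene; the rows of Cdk2 did follow the number, and pairing within rows was not tested over all rows. The 22 members with separate libraries became 11 of 21 tested with the filter of 10 FPKM and 26 to 35 on leaving out a library, where fewer libraries separate more easily. The median log2 fold change of the members stayed between 0.16 (equal upper quartiles; all genes 0.02) and 0.26. Equal upper quartiles turned 1 member, Orc3, to -0.03. Leaving out a library turned 4 to 7 members, among them E2f5 (-0.08 without B-1a replicate 2), E2f6 (0.08 without B-1b replicate 2), Cdk4 (-0.06) and Cdk7 (-0.12 without B-1b replicate 2). With a library left out, the lone library of its group was assumed to vary like the others. Tests on counts (edgeR, DESeq2) were not run because the values, being fractional, were not read as counts.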
